A study of Mus musculus with 18 samples.

Results

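RNA-seq libraries of CD115- CDPs (common dendritic cell progenitors) and of MPPs (multipotent progenitors), both from mice with an induced deletion of Trim33, were compared, 3 libraries of each, which are 6 of the 18 libraries of the series. They were taken as the libraries labelled KO of these 2 populations, and same-numbered libraries were treated as pairs. The cells came from the bone marrow of C57BL/6 mice aged 6 to 8 weeks. KO mice carried Trim33 fl/fl and Cre-ERT2, a Cre recombinase that acts throughout the body once tamoxifen is given. They received 2 mg of tamoxifen intraperitoneally on 5 successive days and rested for 7 days, and Cre was to remove exons 2 to 4 of Trim33. By genotype both KO populations shared this deletion, and Cre was active in the mice as a whole, not only in the sorted cells. WT mice were Trim33 fl/fl without Cre, and their 3 CD115- CDP and 3 MPP libraries are given beside the KO values. The study describes the mice of both genotypes in the RNA-seq as treated with tamoxifen. MPPs had been sorted as Lin- Sca-1+ CD117+ CD34+ FLT3+ cells and CD115- CDPs as Lin- CD11c- FLT3+ CD117int CD115- CD127- cells. Levels are FPKM (fragments counted for a gene, divided by transcript length and by the library's mapped fragments), after each library was multiplied by 1 factor so that the median gene was level across libraries. The factors of the 6 KO libraries lay between 0.897 and 1.11. Read totals were not part of the tables, but the steps that 1 read makes in low FPKM values pointed to about 20150000 to 21400000 mapped reads in each KO library. This estimate is indirect, and for both replicate 3 libraries the best fitting total was hardly better than the next.

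MPPs are short-lived descendants of hematopoietic stem cells that still give rise to all blood lineages. On the way to dendritic cells (DCs) they switch off stem cell factors such as HLF and MEIS1, take up the transcription factor IRF8 and lose access to the erythroid and megakaryocytic fates. CDPs lie further along this path and are more restricted. They give rise to conventional DCs (cDCs), which present antigen to T cells, and to plasmacytoid DCs (pDCs), which make type I interferon, and the CD115- fraction is known for its bias toward pDCs. TRIM33 (TIF1-γ) is a transcriptional co-factor and ubiquitin ligase of the TIF1 family that works with SMAD proteins and with PU.1. The comparison asks which of the steps from MPP to CD115- CDP can be seen in mice with the Trim33 deletion.

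The labels were checked against the data first. Trim33 (GRCm38.p6 chromosome 3, 103279293 to 103358770) read 10.1, 9.16 and 3.73 FPKM in the KO CD115- CDP libraries and 9.83, 11.8 and 4.305 FPKM in the KO MPP libraries. Replicate 3 was the lowest in both populations, and the groups overlapped (log2 fold change −0.15 ± 0.12 SE, adjusted p = 0.486). On a scale shared by all 12 libraries the WT levels were 14.6, 16.4 and 7.99 FPKM in CD115- CDPs and 9.83, 9.51 and 8.11 FPKM in MPPs. A value for the whole gene counts reads from the exons that Cre leaves in place, so it does not check the deletion. KO MPP replicates 1 and 2 did not lie below the WT MPPs, and the deletion in these libraries rests on the labels. Of the sort markers, Ly6a, which encodes Sca-1, read 15.7, 16.3 and 15.3 FPKM in CD115- CDPs and 39.8, 34.3 and 38.7 FPKM in MPPs. The groups did not overlap, in the direction that the Sca-1 gate on MPPs sets, and Ly6a was the only 1 of 11 tested sort markers past the threshold (log2 fold change −1.20 ± 0.10, adjusted p = 0.0243). Of all genes tested, 0.659% passed as lower over the 3 pairs. Without replicate 3, 3 of the 11 were higher and 2 were lower, against 1.70% and 1.98% of all genes tested. Kit, which encodes CD117, lay at 13.3, 8.97 and 26.3 FPKM against 30.3, 35.1 and 44.7 FPKM without overlap, but with an adjusted p of 0.0665, and it passed once the mean required for testing was raised to 5 FPKM (adjusted p = 0.0422). Flt3, gated as positive in both populations, lay between 158 and 264 FPKM over the 6 libraries. Csf1r, which encodes CD115, the receptor used to gate cells out of the CD115- CDPs, lay at 11.98, 10.2 and 34.4 FPKM there and at 4.595, 4.25 and 3.53 FPKM in MPPs. Its messenger was thus not at 0 in CD115- CDPs, and it was highest in replicate 3 (adjusted p = 0.0947). Il7r, which encodes CD127, lay at 11.8, 9.08 and 2.93 FPKM in CD115- CDPs and at 1.91, 1.99 and 7.54 FPKM in MPPs, and the groups overlapped. The sort marker Cd3e, a chain of the T-cell receptor complex, was at most 0.0732 FPKM. Of the mature lymphocyte genes, Ms4a1, the CD20 gene of B cells, was at most 0.0463 FPKM. The 13 genes of that list found in the tables nevertheless summed to 106, 108 and 95.3 FPKM in CD115- CDPs and to 102, 75.2 and 87.9 FPKM in MPPs, with Nkg7, a granule gene of cytotoxic lymphocytes, the most abundant and 8 above the testing limit.

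Replicate 3 of both KO populations stood apart from replicates 1 and 2. The first principal component of the 6 libraries, with 60.6% of the variance, separated the replicate 3 libraries, and the second, with 22.1%, separated CD115- CDPs from MPPs. KO CD115- CDP replicate 3 correlated more closely with KO MPP replicate 3 (Pearson r = 0.978 over 12131 genes) than with the other CD115- CDP libraries (r = 0.939 and 0.934). Relative to the mean of replicates 1 and 2, 647 of 12131 tested genes were at least 1 lower on the log2 scale in replicate 3 of both populations, and 69 were at least 1 higher in both. Cd83, an activation marker of DCs, read 72.8, 122 and 0.426 FPKM in CD115- CDPs and 64.1, 75.6 and 0.6099 FPKM in MPPs, while Relb, an NF-κB subunit, read 54.6, 67.6 and 3.81 FPKM in CD115- CDPs and 44.04, 66.5 and 4.502 FPKM in MPPs. Both were low in replicate 3 of both populations. Hspa1a, an inducible heat shock protein, went the other way, with 18.3, 6.23 and 215 FPKM in CD115- CDPs and 10.8, 1.901 and 105 FPKM in MPPs. Replicate 3 also differed in lineage genes, and there not in the same direction in both populations. The summed level of 20 neutrophil granule genes was 1265, 996 and 4359 FPKM in CD115- CDPs and 3006, 1816 and 1713 FPKM in MPPs, and Mpo, the myeloperoxidase of primary granules and the most abundant of them, read 347, 274 and 1959 FPKM in CD115- CDPs. The summed level of 22 early lymphoid genes, of which Dntt was the most abundant, was 1736, 1620 and 845 FPKM in CD115- CDPs and 889, 719 and 1345 FPKM in MPPs. None of these genes was at 0 in all 6 libraries. In WT CD115- CDPs the neutrophil granule sum, on a scale shared by all 12 libraries, was 762, 899.8 and 4835 FPKM, with replicate 3 again the highest. That WT library also stood apart in monocyte and macrophage genes (sums of 706, 599.9 and 2485 FPKM in WT CD115- CDPs) and in mature lymphocyte genes (107, 126 and 538 FPKM), whereas the mature lymphocyte sums of the 3 KO CD115- CDP libraries were 108, 110.3 and 99.0 FPKM. What set replicate 3 apart was not tested, so counts of called genes that moved without the third pair are also given without it. The KO fit without it holds 2 pairs and leaves 1 residual degree of freedom per gene. Its p-values then rest largely on the variance shared across genes. Smaller p-values there are not stronger evidence than those of all 3 pairs. In sorted bulk samples, fewer cells of a type and less RNA per cell cannot be told apart.

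**Figure D1:**
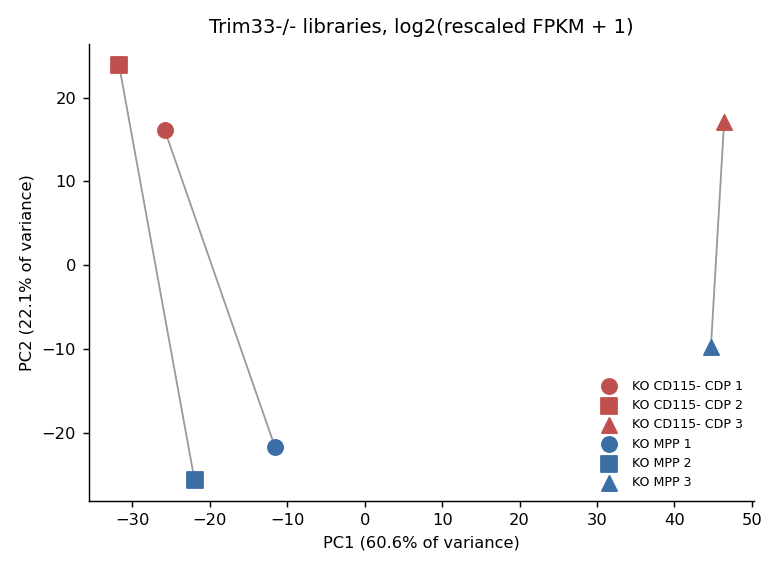
Principal components of the 6 KO libraries from log2(rescaled FPKM + 1) of 12131 genes, with PC1 (60.6% of the variance) on the x axis and PC2 (22.1%) on the y axis. Colours give the population, shapes the replicate number and lines join same-numbered libraries; both replicate 3 libraries lie on the right, and each CD115- CDP library lies above its MPP pair.

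**Figure D2:**
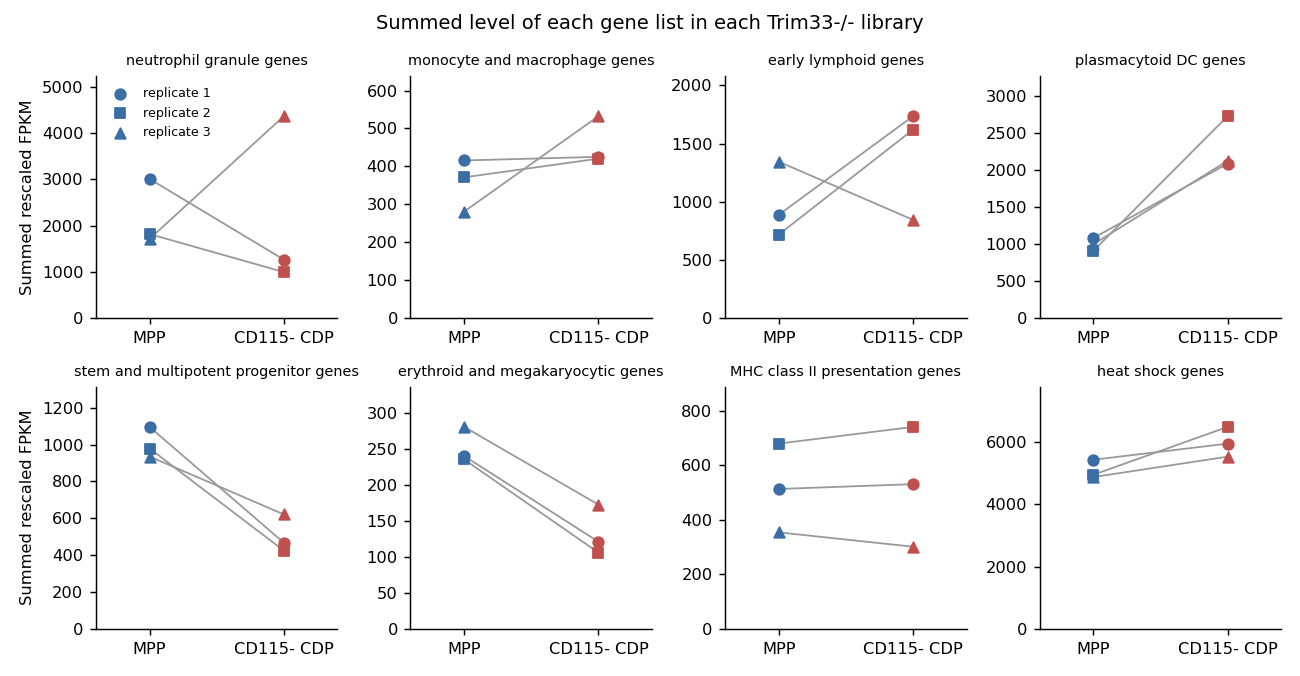
Summed rescaled FPKM (y axis, linear from 0) of 8 gene lists in MPP and CD115- CDP libraries (x axis), with shapes for replicate numbers and lines joining pairs. The stem and multipotent progenitor sum was lower in CD115- CDPs in all 3 pairs, while the neutrophil granule and early lymphoid sums ran in opposite directions in pair 3 and in pairs 1 and 2.

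KO CD115- CDPs had higher levels of Irf8, a transcription factor of DCs and monocytes, of Ly86, Mpeg1 and Tcf7 than KO MPPs. They had lower levels of 6 stem and multipotent progenitor genes, among them Hlf, Meis1 and Hoxa10, and of the erythroid genes Car2 and Hbb-bt. Of 12131 genes tested, 27 were higher in CD115- CDPs (0.223%) and 80 were lower (0.659%) in the paired fit (limma with the replicate number as a block, adjusted p of at most 0.05 and a log2 fold change of at least 1 in size). Of these, 24 and 75 did not overlap between the groups and kept their direction in all 3 pairs. Without regard to the threshold, 997 genes (8.22%) lay higher in every CD115- CDP library than in every MPP library and 1281 (10.6%) lay lower in every one. The number of calls rested on the pairing, on the filter on low values and on which pairs were included. With no filter on low values Irf8 was the 1 higher gene (adjusted p = 0.0431) and 0 were lower. With no replicate block Ly86 was the 1 higher gene (adjusted p = 0.0239) and 0 were lower. Irf8 was not called there (adjusted p = 0.165), while 1395 genes had an unadjusted p under 0.05. Without replicate 3 the counts were 205 higher and 238 lower (1.70% and 1.98% of 12031 genes tested), and 101 of the 107 genes were called in the same direction, and without replicate 1 or 2 none was called. All 107 kept their sign without the third pair.

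Irf8 (GRCm38.p6 chromosome 8, 120736358 to 120756694), the interferon regulatory factor needed for cDC1s and monocytes, had the smallest adjusted p of the 27 higher genes. It read 99.4, 98.5 and 261 FPKM in CD115- CDPs and 18.6, 17.99 and 45.2 FPKM in MPPs. Replicate 3 was the highest in both populations, and the 3 pairs differed by 2.36, 2.39 and 2.51 on the log2 scale (log2 fold change 2.42 ± 0.09 SE, adjusted p = 0.00534). Ly86 (chromosome 13, 37345345 to 37419036) had the largest rise on the log2(FPKM + 1) scale. It encodes MD-1, the partner of the Toll-like receptor homologue RP105 on B cells and DCs. Levels of Ly86 were 43.2, 51.9 and 65.02 FPKM in CD115- CDPs and 4.39, 2.87 and 4.48 FPKM in MPPs, and every CD115- CDP library stood far above every MPP library (log2 fold change 3.47 ± 0.16, adjusted p = 0.0109). Mpeg1, the pore-forming perforin-2 of phagocytes, read 27.7, 23.9 and 56.2 against 4.73, 4.39 and 14.6 FPKM (2.13 ± 0.12, adjusted p = 0.0158). Among the other large rises were Tmem119, a surface protein best known from microglia (15.2, 17.7 and 16.5 against 2.25, 1.56 and 4.77 FPKM), and Pld4, an endolysosomal nuclease that degrades ligands of Toll-like receptors (19.4, 15.2 and 15.96 against 6.35, 4.54 and 4.27 FPKM). Fcer1g, the common gamma chain of Fc receptors, read 87.2, 108 and 132 against 40.9, 32.9 and 35.7 FPKM. For Mpeg1, Tmem119, Pld4 and Fcer1g no CD115- CDP library lay within the range of the MPP libraries. Tcf7, the transcription factor TCF-1 of early lymphoid and T cells, was at 15.9, 9.39 and 14.8 FPKM in CD115- CDPs and 2.31, 1.82 and 1.94 FPKM in MPPs (2.22 ± 0.15, adjusted p = 0.0169), and its 3 CD115- CDP libraries did not split by replicate 3. Lgals1 (galectin-1), Hvcn1 (the voltage-gated proton channel of phagocytes and B cells), Tmem229b and Atp1b3 (a subunit of the sodium pump) completed the protein-coding genes of the 15 largest called rises without overlap, with log2 fold changes of 1.83, 1.74, 1.76 and 1.53. Nfil3, a bZIP factor required for cDC1s, read 64.1, 85.1 and 29.6 FPKM in CD115- CDPs and 29.9, 31.2 and 9.07 FPKM in MPPs. Its groups overlapped, with replicate 3 low in both populations, while each pair had the higher value in CD115- CDPs (1.37 ± 0.13, adjusted p = 0.0276).

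The promoters of Ly86 and Irf8, the called genes with the largest rises, are shown, from 250 bases before to 50 bases after the RefSeq start on GRCm38.p6. Capitals mark GGAA on either strand (printed TTCC where it is on the other), the core that PU.1 and other ETS factors bind. Of 2 Irf8 windows the one at the annotated gene start (chr8:120736108-120736407, plus strand) held 2 matches and the Ly86 window (chr13:37345095-37345394, plus strand) held 3.
Irf8: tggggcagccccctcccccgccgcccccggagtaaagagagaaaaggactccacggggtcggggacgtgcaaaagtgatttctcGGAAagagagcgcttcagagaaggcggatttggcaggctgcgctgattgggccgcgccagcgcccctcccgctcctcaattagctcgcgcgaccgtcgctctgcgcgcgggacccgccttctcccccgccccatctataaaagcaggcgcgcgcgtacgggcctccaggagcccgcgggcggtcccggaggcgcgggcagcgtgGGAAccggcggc
Ly86: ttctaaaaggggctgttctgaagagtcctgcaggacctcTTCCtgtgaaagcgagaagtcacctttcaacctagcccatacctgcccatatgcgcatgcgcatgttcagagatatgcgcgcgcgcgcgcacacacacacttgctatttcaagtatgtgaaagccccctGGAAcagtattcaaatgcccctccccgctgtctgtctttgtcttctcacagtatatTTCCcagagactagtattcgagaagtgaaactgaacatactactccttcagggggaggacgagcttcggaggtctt
At least 2 matches were present in 84.6% of all 32851 windows and at least 3 in 66.3%, and the median was 4.0 in the 17 of 27 higher genes with a window, 3.0 in the 64 of 80 lower genes with one and 3.0 in the 9568 tested genes with one.

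**Figure D3:**
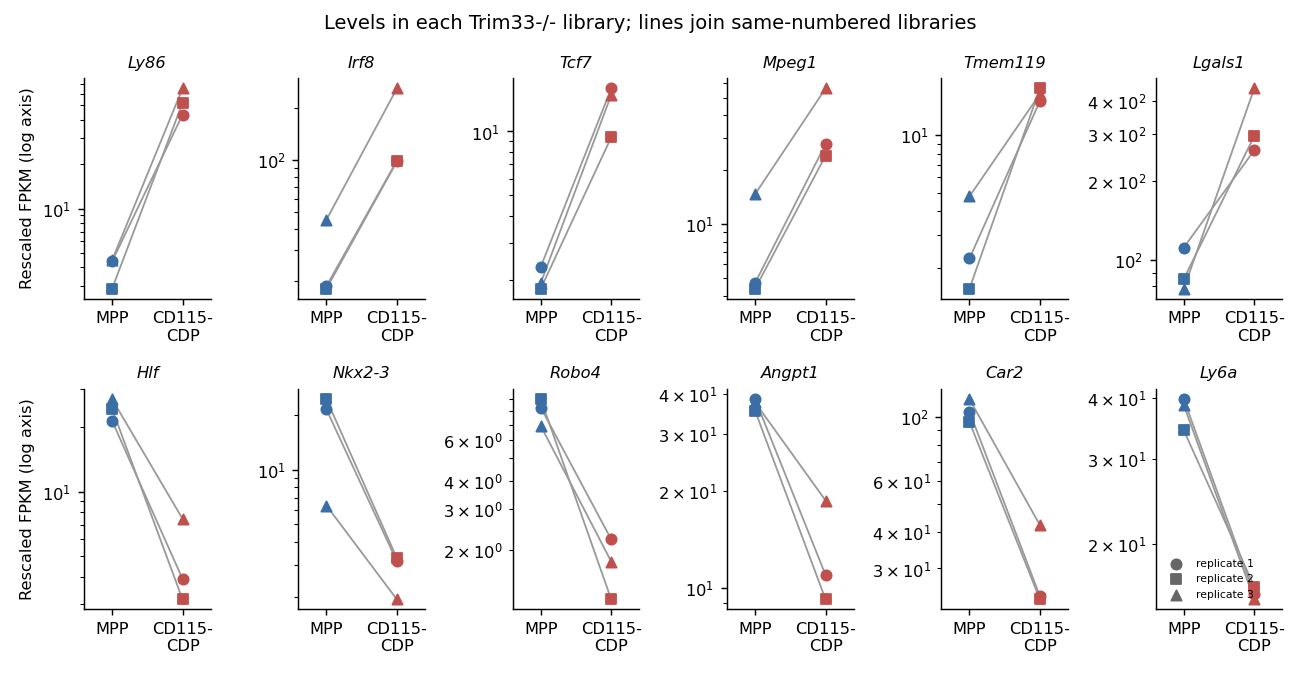
Rescaled FPKM (log axis) of 12 genes in each KO library, MPPs in blue and CD115- CDPs in red, with lines joining same-numbered libraries and a shape for each replicate number. In the upper row (Ly86 to Lgals1) every CD115- CDP value lies above every MPP value, and in the lower row (Hlf to Ly6a) below.

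The 2 largest falls among the called genes on the log2(FPKM + 1) scale were those of Hlf and Nkx2-3. Hlf (GRCm38.p6 chromosome 11, 90336535 to 90390917), a PAR bZIP factor that maintains hematopoietic stem cells, read 3.91, 3.14 and 7.47 FPKM in CD115- CDPs and 21.4, 24.3 and 26.995 FPKM in MPPs. The 3 pairs differed by −2.19, −2.61 and −1.73 on the log2 scale, and the groups did not overlap (log2 fold change −2.17 ± 0.18, adjusted p = 0.0244). Nkx2-3 (chromosome 19, 43612325 to 43615892), a homeobox factor, read 3.13, 3.25 and 1.93 against 21.4, 24.4 and 6.34 FPKM (−2.11 ± 0.26, adjusted p = 0.0362), and MPP replicate 3 lay far below MPP replicates 1 and 2. Angpt1 (angiopoietin-1) was at 10.99, 9.24 and 18.7 against 38.4, 35.4 and 37.5 FPKM, Meis1, a cofactor of HOX proteins, at 9.86, 8.11 and 10.3 against 25.02, 20.97 and 21.6 FPKM, Hoxa10 at 1.84, 2.599 and 2.41 against 6.39, 7.03 and 5.98 FPKM, and Robo4, a guidance receptor of stem and endothelial cells, at 2.22, 1.22 and 1.78 against 8.299, 9.03 and 6.91 FPKM. None of these 4 genes overlapped between the groups. Of 32 tested stem and multipotent progenitor genes, these 6 were lower, against 0.659% of all genes tested, and 0 were higher. The lower value in all 3 pairs was found in 26 of the 32, against 25.3% of all genes tested. The median log2 fold change of the 32 was −0.84, against −0.02 over all genes tested. Without replicate 3, 16 of the 32 were lower, as were 1.98% of all genes tested in that fit. Some of the largest differences missed the threshold. Myct1 read 2.85, 3.23 and 2.701 against 36.6, 38.9 and 7.65 FPKM (log2 fold change −2.58 ± 0.42, adjusted p = 0.0613). Mecom, which encodes EVI1, read 0.963, 0.841 and 1.58 against 6.25, 8.596 and 4.46 FPKM (−1.78 ± 0.26, adjusted p = 0.0513). Mecom was called as lower with FPKM as deposited (adjusted p = 0.0413) and as TPM (0.0442), and Myct1 as TPM (0.0465) and with the filter at a mean of 5 FPKM (0.0375). In both genes the groups did not overlap, and in Myct1 MPP replicate 3 lay far below the other MPP libraries.

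The rest of the 15 largest called falls had varied known roles. Adgrl4, an adhesion receptor of endothelium, read 33.8, 23.1 and 50.8 against 148, 130.5 and 143 FPKM, and Emcn, the sialomucin endomucin of endothelium and stem cells, 1.56, 1.504 and 2.997 against 8.75, 7.19 and 9.16 FPKM. Hnf4a, a nuclear receptor of liver and gut, was low in absolute level at 1.26, 0.996 and 3.03 against 7.19, 6.45 and 12.9 FPKM, with an adjusted p of 0.0159. Slc16a11, a monocarboxylate transporter, read 4.91, 4.86 and 7.29 against 19.8, 17.7 and 31.8 FPKM. Ddx4, the germ-cell RNA helicase, Vldlr, the very low density lipoprotein receptor, and Naprt, which makes NAD from nicotinic acid, had log2 fold changes of −1.78, −1.71 and −1.69. For these 7 genes every MPP library lay above every CD115- CDP library. Of 10 stromal and endothelial markers, 3 reached the mean of 0.5 FPKM needed for testing. Cdh5, Kdr, Lepr, Cxcl12, Col3a1 and Adipoq did not, Emcn was lower, and Pecam1, the most abundant, read 39.3, 35.1 and 42.6 against 27.2, 23.9 and 28.8 FPKM. Col4a2 read 0.408, 0.3097 and 0.953 against 4.66, 4.06 and 3.02 FPKM and its neighbour Col4a1, chosen after its values were seen, 0.555, 0.5199 and 0.8604 against 4.595, 3.66 and 3.26 FPKM, both without overlap. The pair shares a promoter and encodes the chains of basement membrane collagen IV. Irf7, the interferon regulatory factor of pDCs, read 12.3, 9.71 and 6.98 against 16.02, 13.8 and 15.1 FPKM and did not pass (adjusted p = 0.122).

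Of erythroid and granulocyte genes, 4 were lower. Car2, a carbonic anhydrase of erythroid cells, read 24.1, 23.5 and 42.3 FPKM in CD115- CDPs and 104, 95.9 and 115 FPKM in MPPs (−1.82 ± 0.15, adjusted p = 0.0234). Hbb-bt, an adult beta globin gene, read 5.78, 12.3 and 18.003 against 31.8, 46.9 and 43.99 FPKM (−1.79 ± 0.20, adjusted p = 0.0344), and its reads may be split with the near-identical Hbb-bs, which lay at 0.795, 0 and 1.31 against 0, 0 and 2.099 FPKM. These were the 2 lower genes among 11 tested erythroid and megakaryocytic genes, and 0 were higher, against 0.659% and 0.223% of all genes tested. The median was −0.89. Without replicate 3, 5 of the 11 were lower, against 1.98% of all genes tested. Gata1 and Klf1, the master factors of red cells, were under the testing limit, with at most 0.502 and 0.386 FPKM in any KO library. Of 20 neutrophil granule genes 0 were higher and 2 were lower, while 0.659% of all genes tested were lower. The 2 were Fcnb (ficolin B, 4.81, 4.72 and 2.28 against 24.7, 13.9 and 10.1 FPKM) and Chil3 (the chitinase-like protein YM1, 15.9, 12.05 and 13.9 against 49.97, 27.2 and 29.8 FPKM), both without overlap. Elane (neutrophil elastase) showed how far the third pair could move a gene of this list, with 35.2, 25.6 and 246 FPKM in CD115- CDPs and 250.0, 189 and 104 FPKM in MPPs (log2 fold change −1.47 ± 0.82, adjusted p = 0.351; without replicate 3 −2.81, adjusted p = 5.8e-05). Without replicate 3, 10 of the 20 were lower, again against 1.98% of all genes. None of 10 tested basophil, mast cell and eosinophil genes passed, and without replicate 3, 6 were lower, against 1.98% of all genes tested.

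Of 24 tested transcription regulators of DCs, Irf8, Nfil3 and Mycl were higher and 0 were lower, against 0.223% and 0.659% of all genes tested. The median log2 fold change was 0.02. Without replicate 3, 5 of the 24 were higher, with Id2 and Irf4 added, against 1.70% of all genes tested. Mycl, the MYC paralogue used by cDC1s, was low in both populations, at 1.44, 1.49 and 1.66 FPKM in CD115- CDPs and 0.172, 0.182 and 0.332 FPKM in MPPs (1.04 ± 0.13, adjusted p = 0.0362), and the fold change on the log2(FPKM + 1) scale understates a gene at such levels (log2 ratio of the mean FPKM 2.74). Spi1, which encodes PU.1, read 143, 175 and 140.5 against 149, 139 and 93.3 FPKM with overlap (adjusted p = 0.314). Id2, an inhibitor of E proteins, read 56.1, 66.5 and 8.07 against 26.6, 19.8 and 8.77 FPKM, and Irf4 34.3, 28.8 and 0.601 against 9.83, 13.1 and 0.717 FPKM. Both were higher in CD115- CDPs in pairs 1 and 2 and not in pair 3, and neither passed over all 3 pairs (adjusted p = 0.215 and 0.214). Spib, an ETS factor close to PU.1 that pDCs need, read 3.03, 2.94 and 0.722 against 0.729, 1.699 and 0.278 FPKM (adjusted p = 0.132). Tcf4, the E protein E2-2 that drives pDCs, read 20.2, 15.5 and 13.9 against 17.6, 20.95 and 18.6 FPKM and its groups overlapped (adjusted p = 0.457). Gfi1 and Etv6 had log2 fold changes of −0.73 and −0.34, without overlap, and did not pass (adjusted p = 0.0522 and 0.114). Batf3 and Zfp366 (DC-SCRIPT) were at or under 0.3097 FPKM in every KO library.

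Among pDC genes a few had large differences that missed the threshold. Siglech, a lectin of pDCs, read 6.94, 11.5 and 2.82 FPKM in CD115- CDPs and 0.466, 0.738 and 0.637 FPKM in MPPs (log2 fold change 2.17 ± 0.32, adjusted p = 0.0522). Ly6d, an early B-cell and pDC progenitor marker, read 209, 295 and 33.2 against 13.3, 12.5 and 14.9 FPKM (3.14 ± 0.63, adjusted p = 0.0866), and Cox6a2, a cytochrome oxidase subunit, 147, 176 and 57.7 against 26.1, 21.5 and 31.5 FPKM (adjusted p = 0.0783). In these 3 genes the groups did not overlap and CD115- CDP replicate 3 was the lowest of its group. Plac8, the most abundant of the list, read 1528, 2034 and 1792 against 815, 677 and 761 FPKM (1.24 ± 0.19, adjusted p = 0.0538). None of 18 tested pDC genes passed. Without replicate 3, 3 were higher and 1 was lower, against 1.70% and 1.98% of all genes tested in that fit. Siglech was called as higher with FPKM as deposited, as TPM and with a pseudocount of 0.1 (adjusted p = 0.0405, 0.0415 and 0.0388), and Plac8 with FPKM as deposited, as TPM, with the filter at a mean of 5 FPKM and without the variance trend (adjusted p between 0.0200 and 0.0429). Cd7, Pacsin1, Rnase6 and Ccr9 had log2 fold changes between −0.16 and 0.12. The pDC sum was higher in every CD115- CDP library, at 2085, 2724 and 2122 FPKM against 1081, 908 and 997 FPKM, of which Plac8 made up the larger share. Of the conventional DC genes 12 of 20 were tested and none passed, and 1 was higher without replicate 3. The cDC1 genes Xcr1, Clec9a and Cadm1 stayed at or under 0.471 FPKM in every KO library, and Itgax, which encodes CD11c and was gated as negative in CD115- CDPs, read 4.89, 4.72 and 4.97 against 3.998, 3.66 and 5.17 FPKM with overlap. None of 12 MHC class II presentation genes passed either, and 1 was higher without replicate 3. Ctss, the protease cathepsin S that trims the invariant chain, read 47.1, 44.9 and 38.8 against 29.1, 24.8 and 22.5 FPKM with an adjusted p of 0.0362 but a log2 fold change of 0.76, under the size required. Cd74, the invariant chain, moved with the replicate number (133, 210.3 and 32.95 against 132, 195 and 40.5 FPKM). Unc93b1, the chaperone that carries Toll-like receptors to endosomes, read 137, 138 and 148 against 78.3, 69.7 and 77.7 FPKM (log2 fold change 0.90, adjusted p = 0.0313), and 0 of 7 tested genes of that list passed both criteria. Tlr9, the DNA receptor of pDCs, was at 2.15, 1.79 and 0.703 against 0.719, 0.799 and 0.152 FPKM.

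Monocyte and macrophage genes other than Ly86 and Mpeg1 did not pass among 14 tested, and Csf1r, F13a1 and Ms4a6c had their largest value in CD115- CDP replicate 3, with 7.01, 5.22 and 52.8 FPKM for F13a1 against 2.23, 2.27 and 2.22 FPKM in MPPs. Of all genes tested, 0.223% were higher over the 3 pairs. Without replicate 3, 5 of the 14 were higher, Csf1r, F13a1 and Ms4a6c among them, against 1.70% of all genes tested. Of 21 tested early lymphoid genes, Tcf7 was higher, 0 were lower and 20 had a log2 fold change above 0, as did 47.2% of all genes tested. The B-lineage members differed strongly in pairs 1 and 2 only. Cd79a, a chain of the B-cell receptor, read 66.8, 48.2 and 2.396 FPKM in CD115- CDPs and 5.71, 2.45 and 3.23 FPKM in MPPs (adjusted p = 0.194; without replicate 3 log2 fold change 3.57, adjusted p = 2.6e-05). Ebf1, the factor that specifies B cells, read 13.7, 10.1 and 0.527 against 1.55, 1.06 and 1.43 FPKM, and Blnk, a B-cell receptor adaptor, 68.2, 63.6 and 9.63 against 6.56, 6.65 and 10.9 FPKM. Without replicate 3, 12 of the 21 were higher, against 1.70% of all genes tested. Of 8 tested mature lymphocyte genes none passed, and without replicate 3, 3 were higher.

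**Figure D4:**
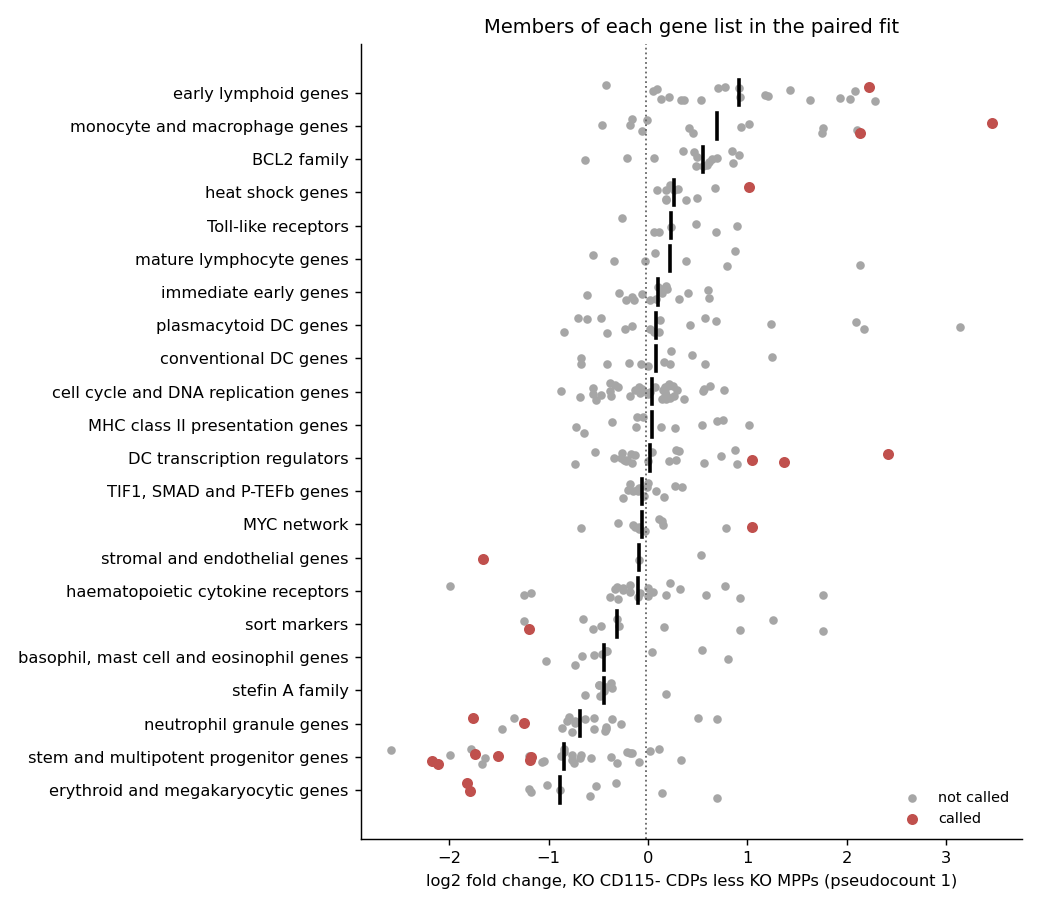
Log2 fold changes (x axis, KO CD115- CDPs less KO MPPs, pseudocount 1) of the tested members of 22 gene lists (y axis, ordered by their medians, drawn as black bars), with genes past the threshold in red and the median of all genes tested as a dotted line. The stem and multipotent progenitor, erythroid and megakaryocytic, and neutrophil granule lists lie to the left, and early lymphoid genes to the right.

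None of 38 cell cycle and DNA replication genes passed, and their median was 0.05. The D cyclins Ccnd2 (43.9, 48.4 and 43.7 against 21.8, 25.01 and 32.8 FPKM) and Ccnd3 (140.4, 133 and 125 against 87.7, 77.3 and 93.4 FPKM) did not overlap between the groups, and neither did Mki67, which lay lower (37.6, 23.6 and 34.6 against 45.5, 53.2 and 82.4 FPKM, adjusted p = 0.105). Of 15 tested BCL2 family members none passed, and 13 had a log2 fold change above 0, against 47.2% of all genes tested. Without replicate 3, 1 of the 15 was higher, against 1.70% of all genes tested. Bcl2l11, which encodes the pro-death protein BIM, read 91.004, 88.3 and 32.5 FPKM in CD115- CDPs and 48.4, 77.7 and 10.8 FPKM in MPPs and was lowest in replicate 3 of both (0.86 ± 0.25, adjusted p = 0.146). Its pro-survival opponent Bcl2 read 21.6, 18.5 and 28.8 against 11.6, 14.5 and 17.8 FPKM without overlap (adjusted p = 0.0897). Myc read 138, 165 and 137 against 67.8, 76.5 and 116 FPKM (adjusted p = 0.111). Mycl was the only 1 of 12 tested MYC network genes past the threshold, while 0.223% of all genes tested were higher. Without replicate 3 Myc and Mycl were both higher. None of 14 TIF1, SMAD and P-TEFb genes passed. Trim28, the most abundant, read 277, 289 and 262 against 250.2, 244 and 245 FPKM, and Trim24, another member of the TIF1 family, 8.22, 8.097 and 6.98 against 7.54, 8.71 and 7.704 FPKM. Among 23 tested cytokine receptor genes none passed. Without replicate 3, 3 were higher and 3 were lower, against 1.70% and 1.98% of all genes tested. Csf3r, the G-CSF receptor, read 12.7, 9.75 and 29.2 against 36.98, 35.2 and 36.3 FPKM without overlap (adjusted p = 0.111). None of 17 immediate early genes and none of 9 stefin A genes passed (1 stefin A gene was lower without replicate 3), and the stefin A genes are near-identical copies whose reads may be split among them. Of 11 heat shock genes Hspa1a was higher (1.02 ± 0.14, adjusted p = 0.04495) although its levels moved more with the replicate number than with the population. This call was lost under every other rescaling tried, with a pseudocount of 0.1 and without the variance trend (adjusted p between 0.0402 and 0.081, the log2 fold change being under 1 where the adjusted p passed). Of these 11 genes, 10 had the higher value in CD115- CDPs in all 3 pairs, as did 20.7% of all genes tested.

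Of the 107 genes, 9 encode short RNAs, a class that poly(A) libraries capture poorly and whose short length makes FPKM coarse. Snord52, Mir6999 and Mir191 were listed at 0 in all 3 MPP libraries. In CD115- CDPs Snord52 read 4.61, 2.35 and 3.99 FPKM, Mir6999 2.12, 2.15 and 5.495 FPKM and Mir191 1.38, 2.81 and 2.396 FPKM. Rpph1, the RNA of RNase P, read 10.3, 7.49 and 32.8 against 2.85, 1.42 and 4.14 FPKM, and Mir7652 was listed at 0 in all 3 CD115- CDP libraries and at 4.97, 2.62 and 2.27 FPKM in MPPs.

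The same population difference was then set beside that of the WT libraries, which share no sample with it. Any batch between the populations may be shared by both genotypes, so the 2 differences may be alike for that reason too, which was not tested. In WT libraries, 246 of 12510 genes were higher in CD115- CDPs (1.97%) and 493 were lower (3.94%). Without replicate 3 these counts were 762 (6.10%) and 774 (6.20%), and without replicate 1 or 2 none was called. The median size of the log2 fold change was 0.17 in KO and 0.30 in WT libraries over the 11966 genes in both fits, and across these genes, which are not independent of one another, the 2 sets of fold changes correlated at r = 0.625. Of the 107 genes called in KO, 100 had the same sign in WT and 86 were also called in the same direction. Of the 739 genes called in WT, 687 were tested in KO, 645 had the same sign there and the same 86 were called. Without replicate 3, 320 of the 443 genes called in KO were called in the same direction in WT. The WT log2 fold change was −3.27 for Hlf (interaction 1.08 ± 0.29, adjusted p = 0.144) and 2.68 for Irf8 (interaction −0.25 ± 0.37, adjusted p = 0.721), and neither interaction passed. On the scale of 12 libraries Irf8 read 487, 254 and 803 FPKM in WT CD115- CDPs and 74.9, 69.2 and 71.3 FPKM in WT MPPs, against 102, 101 and 271 FPKM in KO CD115- CDPs and 18.97, 18.4 and 46.6 FPKM in KO MPPs. Every KO library lay below the WT library of the same population and number.

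The interaction of population and genotype tested where the difference itself differed. Of 12357 genes, 23 had a more positive difference in KO than in WT (0.186%) and 8 a more negative one (0.0647%). All 31 were called in WT (the 23 lower and the 8 higher in CD115- CDPs), and 3 were called in KO. Some of the 23 were under the testing limit in the KO libraries alone. They entered through their WT levels, so the count of 23 partly follows from the filter. With every library rescaled to the same total (TPM) the counts were 4 and 4. Without replicate 3 the counts were 312 (2.53%) and 456 (3.70%) and included 29 of the 31 in the same direction, and with no replicate block 18 of the 31 were called in the same direction. Cd300c, an immunoglobulin-like receptor of pDCs and monocytes, read 1.304, 2.07 and 1.499 FPKM in KO CD115- CDPs and 0.753, 1.12 and 0.416 FPKM in KO MPPs, but 18.4, 11.998 and 19.3 FPKM in WT CD115- CDPs and 1.18, 0.423 and 0.813 FPKM in WT MPPs (interaction −2.69 ± 0.19, adjusted p = 0.0138). Cd7, a surface receptor of lymphoid cells and pDCs, read 5.64, 4.42 and 5.56 FPKM in KO CD115- CDPs, 3.99, 4.53 and 5.58 FPKM in KO MPPs, 57.6, 42.9 and 49.2 FPKM in WT CD115- CDPs and 7.12, 6.56 and 7.01 FPKM in WT MPPs (interaction −2.55 ± 0.18, adjusted p = 0.0138). Its populations did not overlap in WT libraries and overlapped in KO libraries. Itgax read 4.99, 4.85 and 5.16 FPKM in KO CD115- CDPs, 4.07, 3.75 and 5.34 FPKM in KO MPPs, 23.8, 16.9 and 20.2 FPKM in WT CD115- CDPs and 3.53, 3.25 and 3.22 FPKM in WT MPPs. Spib read 3.099, 3.02 and 0.7497 FPKM in KO CD115- CDPs, 0.742, 1.74 and 0.287 FPKM in KO MPPs, 19.4, 12.8 and 11.6 FPKM in WT CD115- CDPs and 1.68, 1.17 and 1.16 FPKM in WT MPPs, and its interaction did not hold with no replicate block (adjusted p = 0.185). Mycl stayed higher in KO CD115- CDPs than in KO MPPs, as above, but by less than in WT (12.6, 10.6 and 13.8 against 1.13, 1.15 and 1.01 FPKM). Tpd52 (tumour protein D52), Scpep1 (a serine carboxypeptidase) and the precursor Mir6939 were the others.

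Of the 23, 5 were on the erythroid and megakaryocytic list and 2 on the immediate early list, while 0.186% of all genes tested were more positive. Ahsp and Klf1 were under the testing limit in the KO libraries alone. They entered this test through their WT levels, so the count for that list partly follows from the filter. Hba-a1 (alpha globin) read 152, 143 and 128 FPKM in WT MPPs and at most 13.3 FPKM in any other of the 12 libraries (interaction 4.06 ± 0.53, adjusted p = 0.0497), and Car1, Ahsp and Klf1 shared this pattern. The summed level of 23 erythroid and megakaryocytic genes was 699.5, 667 and 697 FPKM in WT MPPs, 244, 241 and 289 FPKM in KO MPPs and between 109 and 179 FPKM in the 6 CD115- CDP libraries. Klf2 read 574, 532 and 473 FPKM in WT MPPs and 117, 87.5 and 142 FPKM in WT CD115- CDPs against 394, 363 and 153 FPKM in KO MPPs and 388, 376 and 139 FPKM in KO CD115- CDPs, and Klf6, Btg2, Rhob and Egr4 likewise had their highest mean in WT MPPs. The immediate early sum was 13368, 12513 and 11808 FPKM in WT MPPs and between 4578 and 7923 FPKM in the other 9 libraries. Both sums were thus highest in the WT MPP libraries. Klf2 also differed in CD115- CDPs, where KO replicates 1 and 2 lay above the WT ones but replicate 3 did not. What each group added to the interaction was not tested.

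**Figure D5:**
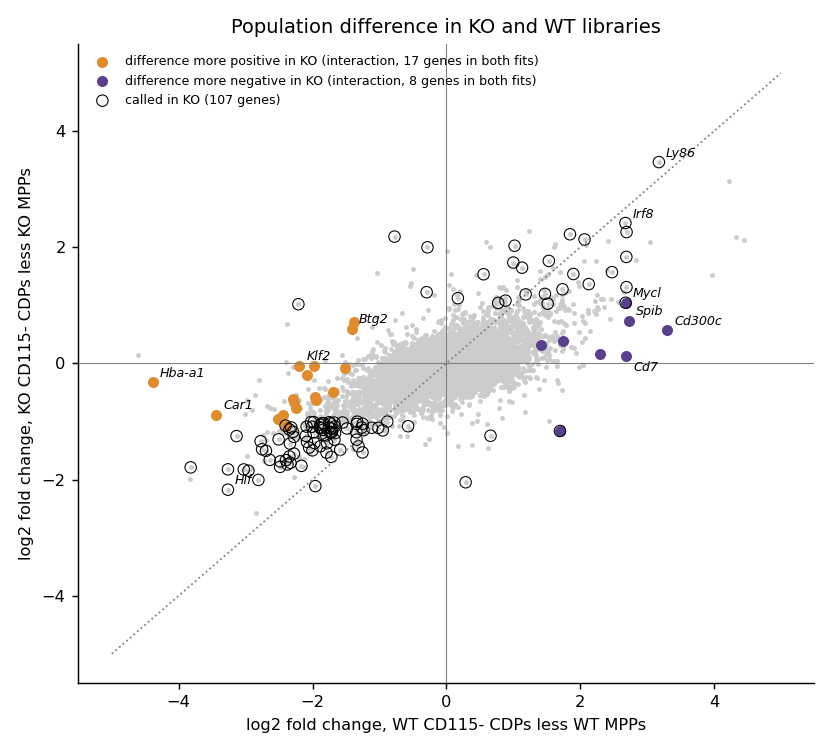
Log2 fold change between CD115- CDPs and MPPs in WT (x axis) and in KO libraries (y axis) for 11966 genes in both fits, on log2(rescaled FPKM + 1), with the dotted line marking equal values. Rings mark the 107 genes called in KO, and filled points the genes whose difference was more positive (orange, 17 of 23 with a value in both fits) or more negative (purple, all 8) in KO; Ly86 and Irf8 lie near the line, and Cd7, Cd300c and Spib to the right of it.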

How the data were processed

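The 6 libraries labelled KO and the 6 labelled WT of CD115- CDPs and MPPs were poly(A) RNA-seq libraries read as single ends of 50 bases on the BGISEQ-500. The deposited values are FPKM per gene with 2 decimals, made by the authors with SOAPnuke 1.5.2, HISAT2 2.0.4, Bowtie2 2.2.5 and RSEM 1.2.12 on mm10, per the submitters' processing notes. No counts were used here, so count models were not run, and the authors' own comparisons were not repeated. CD115- CDPs and MPPs came from separate tables, joined on 19710 shared gene identifiers, so population, table and any batch between them cannot be told apart.

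Each library was divided by its median ratio to the geometric mean of the libraries compared, over genes above 1 FPKM in all of them. Genes with a mean of at least 0.5 rescaled FPKM were tested by limma 3.58.1 (R 4.3.3) on log2(FPKM + 1) with an intensity trend, the replicate number as a block and Benjamini-Hochberg adjustment over all genes tested. A gene was called at an adjusted p of at most 0.05 and a log2 fold change of at least 1 in size. Fold changes on this scale understate low genes. The interaction of population and genotype came from 1 model of the 12 libraries, in which every combination of genotype and replicate number had its own baseline. The scripts were checked on simulated data. Plots used matplotlib 3.10.9.

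Same-numbered libraries were treated as pairs. Their deviations from the group means correlated at r of 0.34, 0.56 and 0.75 in KO and 0.14, 0.38 and 0.36 in WT. KO CD115- CDP replicate 1 correlated better with KO MPP replicate 2 (r = 0.61) than with its own number, as did WT CD115- CDP replicate 1 with WT MPP replicate 2 (r = 0.17). CD115- CDP replicate 2 correlated with MPP replicate 1 at r = 0.49 in KO and 0.03 in WT, in both below its own number. Deviations cancel within a group, so an outlying library makes the other deviations of its group alike. These correlations therefore cannot decide whether replicates 1 and 2 are rightly paired. The labels do not say that a number marks shared animals, and p-values measure only the spread between these libraries. Depth was estimated from the spacing of low FPKM values, of which 46.8% to 60.8% lay within 0.1 of a whole read, too few to recover counts.

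Named genes were Trim33, the sort markers, the 15 largest called rises and falls without overlap and in 1 direction in all pairs, up to 10 called interactions in each direction, and members of 22 gene lists, of which Emr1, Tpsb2, Igj and Trbc1 were not matched in the tables. Other genes are said to have been chosen after their values were seen. The comparison and lists were chosen with earlier results of these data known. Promoter windows came from RefSeq on GRCm38.p6. Alternatives changed the block, rescaling, pseudocount, filter, variance trend, fold change minimum and the libraries included. Some results are not reported here.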

Additional observations from a re-analysis of the deposited data

Results flagged for a closer look

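Of the 12357 genes in the interaction, 23 had a CD115- CDP to MPP difference that was more positive in KO than in WT and 8 one that was more negative, by the test of the difference itself. Some of the 23 were under the testing limit in the KO libraries alone and entered through their WT levels. The 8 negative values, on the log2 scale, were −2.85 for Mir6939, −2.69 for Cd300c, −2.55 for Cd7, −2.12 for Itgax, −1.97 for Spib, −1.60 for Mycl, −1.35 for Scpep1 and −1.10 for Tpd52. Mir6939 was listed at 0 in all KO CD115- CDP and all WT MPP libraries. The 10 largest positive values were 4.06 for Hba-a1, 2.52 for Car1, 2.50 for Ahsp, 2.17 for Klf2, 2.08 for Egr4, 2.02 for Btg2, 1.93 for Rhob, 1.87 for Pomgnt2, 1.78 for Klf1 and 1.68 for Klf6. Groups of 3 libraries are too small for a test of single outlying libraries.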

How the results depend on the processing

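The counts of called genes rested on the libraries included, and those in KO also on the replicate block and on the filter on low values. With no replicate block the WT counts were 227 higher and 501 lower, close to those with it. With no replicate block 1 gene was higher and 0 were lower in KO CD115- CDPs, and the more negative interactions rose from 8 to 15. With no filter on low values the KO counts were again 1 and 0, and the more positive interactions numbered 14. With a filter at a mean of 5 FPKM, 53 genes were lower in KO, the interactions numbered 8 and 3, and the WT counts were 143 higher and 225 lower. Quantile normalization left 51 lower genes in KO. TPM left 4 and 4 interactions and moved the median log2 fold change of all genes from −0.02 to −0.16, and a pseudocount of 0.1 left 10 positive interactions. With no fold change minimum 42 genes were higher in KO, and 515 higher and 940 lower in WT. WT counts were 139 higher with no filter. Alternatives for WT were added after seeing the data. Leaving out 1 pair gave 0 to 205 higher and 0 to 238 lower genes in KO, 0 to 312 and 0 to 456 interactions, and 0 to 762 higher and 0 to 774 lower genes in WT, in each case with the highest count without replicate 3 and 0 without replicate 1 or 2. Leaving out 1 KO library with no replicate block gave 0 to 71 higher and 0 to 110 lower genes, the most without CD115- CDP replicate 3. The causes were not tested.

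Of the 40 called genes named in the report, 39 lost their call with no replicate block, 39 with no filter and 40 without replicate 1 or 2, and none changed sign in any alternative. Under the other alternatives Hspa1a lost its call with FPKM as deposited, TPM, quantile normalization, a pseudocount of 0.1 and no variance trend, Col4a2 and Naprt with quantile normalization and a pseudocount of 0.1, Lgals1 with quantile normalization and no variance trend, and Nkx2-3 with quantile normalization. Of the 59 named genes that were not called, 6 gained a call under these alternatives. They were Siglech, Plac8 and Mecom with FPKM as deposited, these 3, Myct1 and Car1 as TPM, Siglech with a pseudocount of 0.1, Kit, Myct1 and Plac8 with the filter at a mean of 5 FPKM, and Plac8 with no variance trend. Without replicate 3, 18 of the 59 gained a call. Signs changed only in genes that were not called. With FPKM as deposited they were −0.0274 for Relb and −0.0388 for Rnase6, and as TPM −0.0137 for Cd7, −0.118 for Relb, −0.123 for Rnase6 and −9.1e-05 for Trim28. With quantile normalization they were 0.0414 for Trim24 and −0.0282 for Trim28, and the log2 ratio of mean FPKM was 0.0370 for Cd74. Leaving out 1 pair at a time gave log2 fold changes of −0.329 to 0.144 for Ccr9, −0.0225 to 0.203 for Cd7, −0.132 to 0.0643 for Cd74, −0.0829 to 1.04 for Dntt, −0.213 to 0.222 for Hbb-bs, −0.0811 to 0.0124 for Klf2, −0.593 to 1.07 for Mpo, −0.0855 to 0.164 for Relb, −0.00134 to 0.051 for Rnase6 and −0.109 to 0.00943 for Trim24. Low genes are limited by values given to 0.01 FPKM.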
